A study of Mus musculus with 2 samples.

Results

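The replication-linked histone genes are the 67 of 32285 genes in the deposited matrices whose symbol starts with Hist1h, Hist2h, Hist3h or Hist4h. Of these, 6 encode linker histone H1 and 61 encode the core histones H2A, H2B, H3 and H4. Their RNA was measured by single-cell sequencing of live CD8 T cells (CD45+, TCRB+, CD8a+). The untreated cells were sorted from C57BL/6 mice, out of the 4th mammary fat pad. The parous library came from multiparous mice and the virgin library from virgin mice, each a pool of 5 or more animals and each 1 library made with a 5-prime kit of 10x Genomics. With 1 library a group, differences between them have no replicate check and were not tested. All intervals are exact 95% intervals and cover counting error only.

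Most histone protein is made while DNA is copied, and the mRNAs of these genes accumulate in S phase and are degraded when it ends. Core histones form the spool on which DNA is wound, and H1 binds the DNA where it enters and leaves the spool. Unlike other mRNAs, most of these transcripts end just after a short hairpin that is bound by the protein SLBP, and carry no poly(A) tail. Reverse transcription in this kind of library is primed from poly(A), so the values count the captured molecules and not all histone RNA of a cell.

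The hairpin is shown because it is what sets these mRNAs apart. Bases of the hairpin are in capitals, 5 bases of flank are in lower case, and the sequences are read 5′ to 3′ from GENCODE mouse release 21 transcripts.
Hist1h1c: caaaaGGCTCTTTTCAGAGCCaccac
Hist1h1e: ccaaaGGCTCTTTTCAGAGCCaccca
Hist1h2ae: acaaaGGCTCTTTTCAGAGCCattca
Hist1h2bb: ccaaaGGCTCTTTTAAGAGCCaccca
Hist1h3e: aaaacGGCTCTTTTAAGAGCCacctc
Hist1h4d: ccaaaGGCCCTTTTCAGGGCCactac
A 16-base hairpin of this kind was present in the longest annotated protein-coding transcript of 43 of the 67 genes. It was present in 86 of 21834 other protein-coding genes (0.394%), for which any protein-coding transcript counted. The form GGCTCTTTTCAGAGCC was found in 25 genes of the H1, H2A, H2B and H3 classes. The form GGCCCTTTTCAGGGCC was found in 7 genes, all of them H4. A single exon was annotated for 62 of the 67.

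The genes lie close together, 54 of them on chromosome 13, 10 on chromosome 3, 2 on chromosome 11 and 1 on chromosome 6. The genes were arranged head to head in 12 pairs with start sites at most 500 bases apart, and each pair joins an H2A and an H2B gene. The promoters below (RefSeq, GRCm38.p6, 250 bases before to 50 after the start) belong to 3 genes described in detail. Capitals mark matches on either strand to the octamer ATTTGCAT, the TATA box TATAAA, the CCAAT box and the H1 box AAACACA. Hist1h1b lies at chr13:21780576-21780875 on the minus strand, Hist1h1c at chr13:23738557-23738856 on the plus strand and Hist1h2ae at chr13:23571171-23571470 on the minus strand.
Hist1h1b: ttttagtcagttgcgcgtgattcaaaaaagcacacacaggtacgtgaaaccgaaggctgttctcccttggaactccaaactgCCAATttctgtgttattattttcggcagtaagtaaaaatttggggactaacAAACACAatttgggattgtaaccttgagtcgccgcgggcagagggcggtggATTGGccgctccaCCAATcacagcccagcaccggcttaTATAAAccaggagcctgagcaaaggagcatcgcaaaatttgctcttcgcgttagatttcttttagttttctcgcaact
Hist1h1c: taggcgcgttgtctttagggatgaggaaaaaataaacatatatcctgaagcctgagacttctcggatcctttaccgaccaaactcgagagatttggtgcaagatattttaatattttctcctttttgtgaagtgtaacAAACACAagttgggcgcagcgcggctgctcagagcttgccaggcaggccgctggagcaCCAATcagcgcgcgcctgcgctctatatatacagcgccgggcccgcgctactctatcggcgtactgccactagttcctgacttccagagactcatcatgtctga
Hist1h2ae: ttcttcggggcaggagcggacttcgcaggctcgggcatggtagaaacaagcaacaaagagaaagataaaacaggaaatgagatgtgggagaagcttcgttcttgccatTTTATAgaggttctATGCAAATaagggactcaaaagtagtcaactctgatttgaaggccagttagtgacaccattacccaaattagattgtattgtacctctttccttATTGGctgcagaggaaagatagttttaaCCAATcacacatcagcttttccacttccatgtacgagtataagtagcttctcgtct
The start site of Hist1h2bg faces that of Hist1h2ae at a distance of 176 bases, so the last promoter holds the start of both. Of 61 histone promoters in the table, 13 held the octamer (7 of 18 H2A and 6 of 16 H2B promoters, and none of the H1, H3 and H4 promoters), against 1.74% of all 32851 promoters. The H1 box was found in 4 of 5 H1 promoters and in 7.18% of all promoters. TATAAA was found in 34 of 61 histone promoters and in 13.6% of all. CCAAT was found in 52 of 61, but in only 3 of 12 H4 promoters, against 37.4% of all promoters. A match of letters is a description and not a site of binding.

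The cell filter kept 3019 of 4927 parous and 2511 of 2526 virgin barcodes, with medians of 4108 and 7001 UMIs (unique molecular identifiers, each 1 captured molecule) per cell. Cycling cells were defined as those with at least 4 of Mki67, Top2a, Birc5, Ube2c, Pclaf, Rrm2, Tk1, Cdk1 and Ccna2 detected, and are called gate cells here. They numbered 55 in the parous library (1.82%, interval 1.38 to 2.36) and 127 in the virgin library (5.06%, interval 4.23 to 5.99). Gate cells held 3.72% of the parous and 12.8% of the virgin UMIs. Detection depends on depth, and with every cell thinned to 1400 UMIs the gate held 20 of 2894 parous cells (0.691%) and 51 of 2497 virgin cells (2.04%), with 125 and 14 shallower cells left out. T cell genes (Cd3e, Cd3d, Cd3g, Trac, Trbc2) summed to 3332 CPM (counts per 1000000 UMIs) in parous and 2903 CPM in virgin gate cells, and Cd8a and Cd8b1 to 1736 and 1824 CPM. B cell, myeloid, epithelial, endothelial, fibroblast and erythroid lists each summed to under 30 CPM in gate cells of both libraries, and Ms4a1, Csf1r, Adgre1, Krt8 and Cdh5 had no UMI there.

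Over all cells, each histone class was lower in parous than in virgin cells. The H1 genes summed to 120.6 CPM in parous and 410.5 CPM in virgin cells, a log2 ratio of -1.77 (-1.84 to -1.69), and the core genes to 201.4 and 618.7 CPM, a log2 ratio of -1.62 (-1.68 to -1.56). The median gene of the whole table had a log2 ratio of -0.13 over all cells, -0.05 inside the gate and -0.10 outside it, so relative to that median the ratios over all cells were -1.64 for H1 and -1.49 for core genes. By core class, H2A summed to 68.3 CPM in parous and 262.5 CPM in virgin cells. H2B summed to 42.4 and 119.7 CPM, H3 to 30.4 and 99.3 CPM and H4 to 60.3 and 137.1 CPM. In a sum over cells, fewer cycling cells and less histone RNA in each cannot be told apart, and the gate divides the sum for this reason.

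Inside the gate the H1 genes summed to 886 CPM in parous and 2307 CPM in virgin cells (log2 ratio -1.38, interval -1.52 to -1.24). The core genes summed to 2229 and 3744 CPM (log2 ratio -0.75, interval -0.84 to -0.66). H2A had 1181 CPM in parous and 1853 CPM in virgin gate cells, H2B 325.2 and 668.2 CPM, H3 329.2 and 581.1 CPM and H4 393.1 and 642.3 CPM. Linker genes thus made up 28.4% (26.2 to 30.8) of the histone UMIs of parous gate cells and 38.1% of those of virgin gate cells. A single T cell receptor segment moved with this difference. Trbv31 was the assigned segment in 5 of 48 parous and 39 of 113 virgin gate cells, and these cells held 3.78% and 45.5% of the gate histone UMIs. In the virgin library they had 9733 CPM of histone RNA against 4597 CPM in all other gate cells. In the parous library they had less than the others, at 1497 against 3253 CPM. Without Trbv31 cells the log2 ratios inside the gate were -0.85 for H1 and -0.33 for core genes, and its part in the result beyond these values was not tested. Gate cells were also deeper in the virgin library, with medians of 8369 UMIs in parous and 18237 in virgin gate cells, and 11 and 45 of them held over 3 times their library's median. Without both these deep cells and Trbv31 cells, an alternative chosen after seeing the data, the log2 ratios were -1.35 and -0.69.

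Outside the gate the libraries lay closer. H1 genes summed to 91.0 CPM in parous and 131.8 CPM in virgin cells (log2 ratio -0.53, interval -0.64 to -0.43), and core genes to 122.9 and 159.2 CPM (log2 ratio -0.37, interval -0.46 to -0.28). The H2A interval included 0, with 25.2 CPM in parous and 28.8 CPM in virgin cells. These ratios depend on the cell filter, which left out 1908 parous and 15 virgin barcodes. With every barcode kept they were -0.028 for H1 (interval -0.117 to 0.061) and 0.036 for core genes (interval -0.044 to 0.115). The sign of the core ratio turned, but both intervals included 0.

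**Figure D1:**
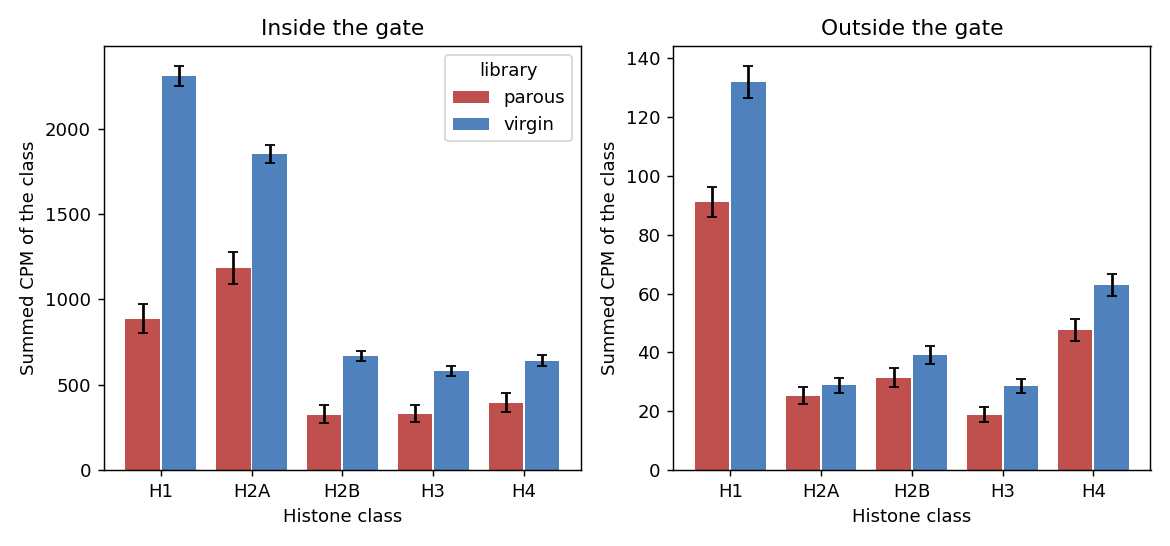
Summed CPM of each histone class in parous (red) and virgin (blue) cells, inside the gate (left panel) and outside it (right panel, different scale), with exact 95% Poisson intervals as error bars. Each class is lower in parous cells inside the gate, from 886 against 2307 CPM for H1 to 393.1 against 642.3 CPM for H4.

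Histone RNA was concentrated in gate cells, more so in the virgin library. Gate cells held 36.0% of all histone UMIs in parous and 75.4% in virgin cells. H2A was the class with the highest share, 64.4% in parous and 90.4% in virgin cells, and H4 the class with the lowest, 24.3% and 60.0%. The level inside the gate exceeded that outside 9.74-fold in parous and 17.5-fold in virgin cells for H1, and 18.1-fold and 23.5-fold for core genes. With the parous levels inside and outside the gate placed at the virgin gate share of UMIs, the log2 ratio of all histone RNA would be -0.81 in place of -1.68. With the virgin levels at the parous gate share it would be -1.03.

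Histone RNA was highest in cells with most gate genes detected, but did not climb at every step. In cells with none, all histone genes summed to 212.1 CPM in parous and 283 CPM in virgin cells. Cells with 4 to 6 gate genes had 706.8 CPM in parous and 795.9 CPM in virgin cells. Their H1 genes had 202.6 and 421.5 CPM, and their core genes 504.2 and 374.4 CPM. Cells with 5 had less than cells with 4, at 220.7 against 944.3 CPM in parous and 419 against 505.7 CPM in virgin cells. Cells with 7 or 8, which numbered 18 parous and 34 virgin, had 4348 and 3348 CPM. In cells with all 9, which numbered 11 parous and 54 virgin, H1 genes had 1463 CPM in parous and 3910 CPM in virgin cells, and core genes 4272 and 6481 CPM. At 6 genes the levels were 770.4 CPM in parous and 1231 CPM in virgin cells. At full depth all histone genes summed were thus lower in parous cells with 5, 6 or all 9 gate genes, and higher at 4, 7 and 8 genes. The core genes alone followed the same steps. The H1 genes alone were higher in parous gate cells at 7 genes only. They had 228.5 CPM in parous and 258.5 CPM in virgin cells at 4 genes, and 1226 and 1465 CPM at 8 genes. At 4 genes, 1 parous cell held 44 histone UMIs, where all 8 parous cells had 15 linker and 47 core UMIs. At 7 genes, 8 parous and 10 virgin cells had 4076 and 1389 CPM, and at 8 genes, 10 and 24 cells had 4514 and 3980 CPM. Cells with all 9 genes were 11 of 55 parous and 54 of 127 virgin gate cells. The number of genes detected depends on depth. With cells thinned to 1400 UMIs, those with 4 genes had 3626 CPM in 13 parous and 9196 CPM in 24 virgin cells. Thinned cells with 4 to 6 genes had 4436 CPM in 19 parous and 9095 CPM in 45 virgin cells. At equal depth parous cells were thus lower at 4 genes too. Which cells account for the lower parous level inside the gate was not tested.

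**Figure D2:**
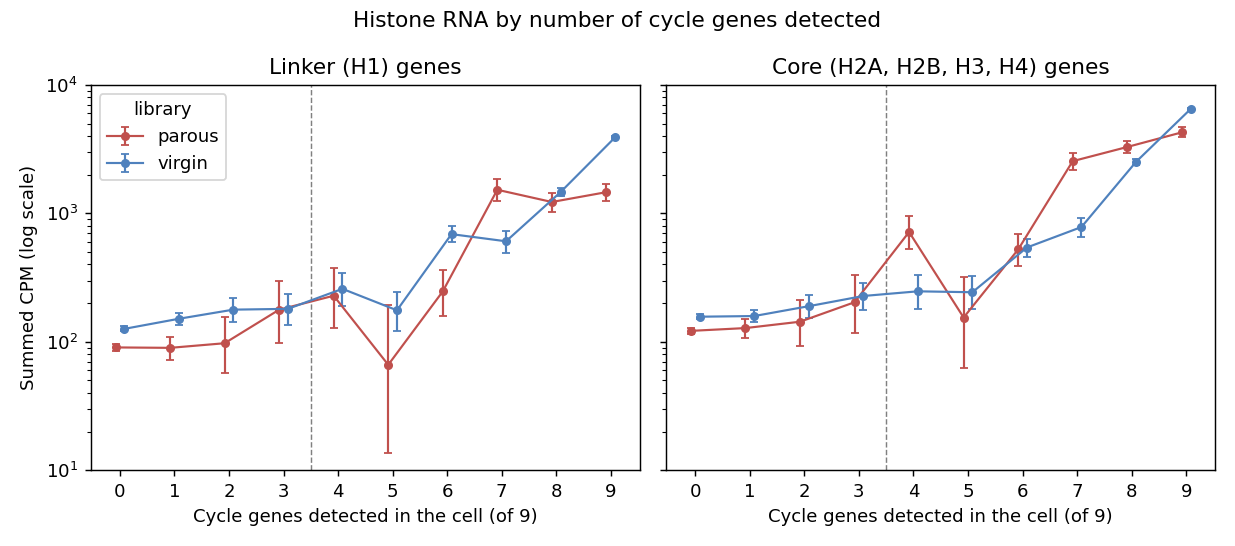
Summed CPM (log axis) of linker genes (left panel) and core genes (right panel) against the number of the 9 gate genes detected in a cell, for parous (red) and virgin (blue) cells, with exact 95% Poisson intervals; the dashed line marks the gate. In cells with all 9 genes the linker genes have 1463 CPM in parous and 3910 CPM in virgin cells, while at 7 genes they have 1527 and 606.2 CPM.

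Gate cells differed widely among themselves. Histone CPM per gate cell had a minimum of 0, a median of 1506 and a maximum of 11232 in the parous library, and 38.01, 2733 and 44124 in the virgin library. The ranges overlap. At least 1000 CPM was reached by 34 parous (61.8%) and 74 virgin gate cells (58.3%), and at least 5000 CPM by 15 (27.3%) and 59 (46.5%). No histone UMI was found in 3 parous gate cells. The 5 cells with most histone UMIs held 33.6% of the parous and 20.5% of the virgin gate total. In cells with at least 20 histone UMIs, 26 parous and 74 virgin, the linker share had medians of 25.7% and 36.8%.

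A list of 30 S-phase replication genes and a list of 30 mitosis genes were summed in each gate cell, and the S-phase share of their UMIs placed the cell. Where that share was 40 to 80%, histone genes had 4713 CPM in 27 parous cells and 8068 CPM in 48 virgin cells. Below 40% they had 3191 CPM in 11 parous and 8254 CPM in 38 virgin cells. Above 80% they had only 833.3 CPM in 17 parous and 1478 CPM in 41 virgin cells. Cells with the most S-phase RNA relative to mitosis RNA thus had the least histone RNA in both libraries. These are ranges of a score and not cell types, and 11 parous and 30 virgin cells lay near a boundary.

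**Figure D3:**
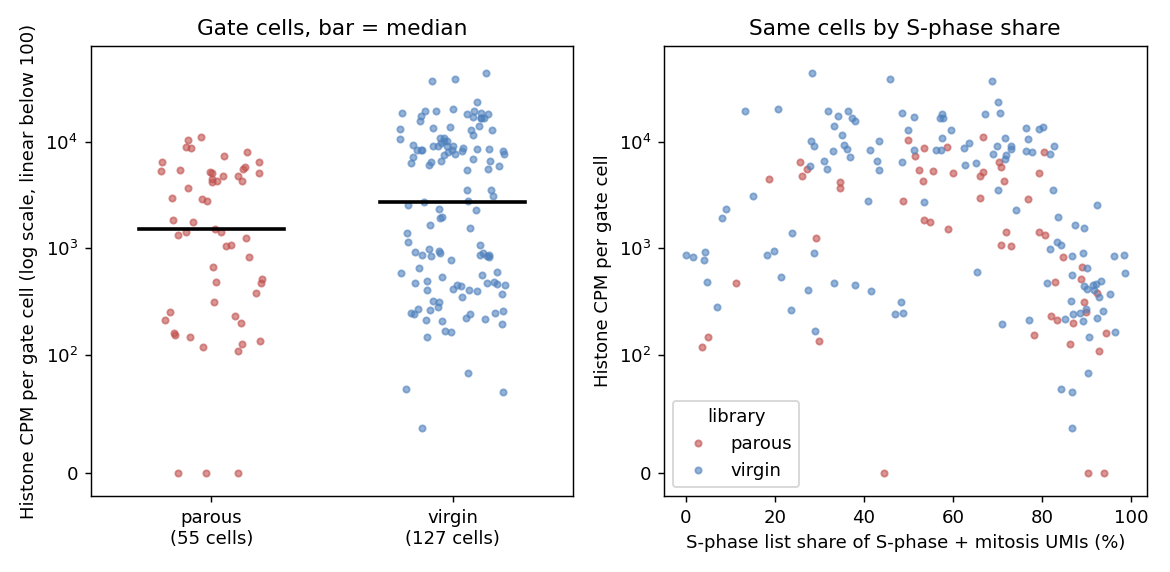
Histone CPM of each gate cell (log axis, linear below 100) by library, with the median as a bar (left panel, 55 parous and 127 virgin cells), and the same cells against the S-phase share of their S-phase and mitosis UMIs (right panel). Medians are 1506 CPM in parous and 2733 CPM in virgin cells, and values fall off above a share of 80%.

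Single genes were counted as lower or higher where CPM differed at least 1.5-fold and the libraries together held at least 20 UMIs. At least 1 UMI was found for 56 genes in parous and 62 in virgin cells, and 5 had none in either. Over all cells 48 genes could be compared, of which 45 were lower in parous cells, 1 was higher and 2 lay within 1.5-fold. Of all 12929 genes compared, 15% were lower and 6.83% higher. The median log2 ratio was -1.86 over the histone genes and -0.14 over all genes. Inside the gate 29 of 42 were lower and none higher, against 20.4% and 10.5% of all genes, with medians of -0.97 and -0.11. Without Trbv31 cells 19 of 41 were lower there, and with at least 10 UMIs required in each library 17 of 24. The share of all genes was not computed for these 2 settings, so neither count has a comparison. Outside the gate 17 of 34 were lower and 1 higher, against 13.7% and 6.95%. The UMI minimum applies to the sum of both libraries, so a gene can pass it mainly through its virgin counts. Such a gene need not be lower in CPM, since the virgin library was deeper. Genes lower in parous cells pass more easily, however, so these counts describe the measured genes only.

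**Figure D4:**
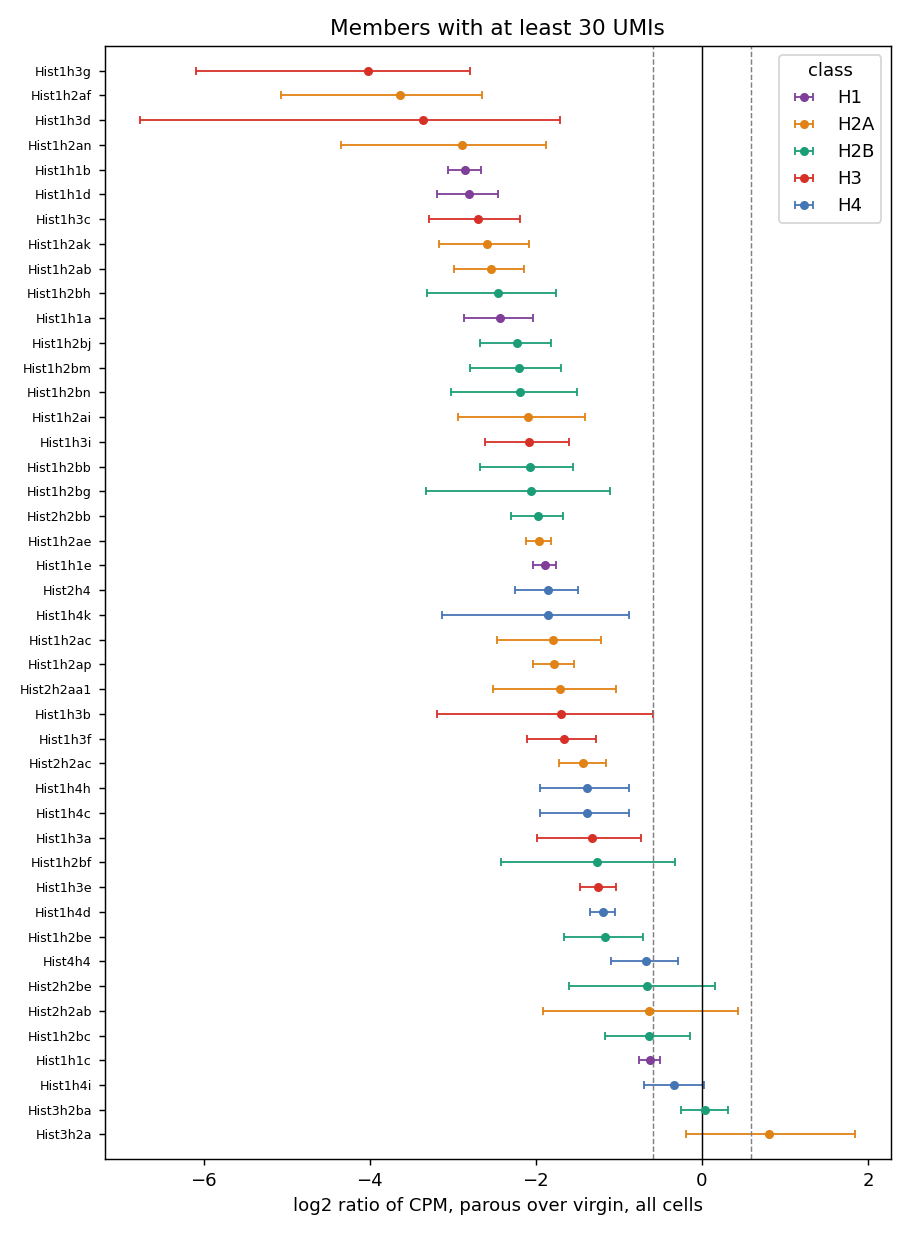
Log2 ratio of CPM, parous over virgin, over all cells for the 44 histone genes with at least 30 UMIs, coloured by class, with exact 95% intervals; dashed lines mark 1.5-fold. Ratios run from -4.02 for Hist1h3g to 0.81 for Hist3h2a.

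Among the linker genes, Hist1h1b (H1f5 in RefSeq) had the highest share of its UMIs in gate cells. It had 17.2 CPM in parous and 124.5 CPM in virgin cells (log2 ratio -2.86, interval -3.06 to -2.66), and gate cells held 83.6% and 97.9% of its UMIs. Inside the gate it had 385.1 CPM in parous and 951.3 CPM in virgin cells, and outside it 2.93 and 3.02 CPM, a difference within counting error. Hist1h1d had 5.05 CPM in parous and 35.5 CPM in virgin cells, and Hist1h1a 4.16 and 22.6 CPM. Both were lower inside the gate, with log2 ratios of -1.88 and -1.76, and outside it, with log2 ratios of -0.98 and -0.72. Hist1h1e had 37.8 CPM in parous and 140.5 CPM in virgin cells, and was lower outside the gate too, at 27.2 against 58.3 CPM. Hist1h1c (H1f2 in RefSeq) behaved differently from Hist1h1b. It had 56.4 CPM in parous and 87.4 CPM in virgin cells (log2 ratio -0.63, interval -0.76 to -0.51), and only 5.40% of its parous and 39.7% of its virgin UMIs came from gate cells. Outside the gate it had 55.4 CPM in parous and 60.4 CPM in virgin cells, and inside it 81.8 and 270.6 CPM. Hist1h1t, a testis linker gene, had no UMI.

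H2A genes, whose products pair with H2B, gave the highest shares from gate cells. Hist1h2ae had 31.5 CPM in parous and 123 CPM in virgin cells (log2 ratio -1.96), and inside the gate 652.5 and 923 CPM (log2 ratio -0.50). Outside the gate Hist1h2ae was higher in parous cells, though within 1.5-fold, at 7.49 against 5.35 CPM (log2 ratio 0.48, interval 0.06 to 0.91). Its partner in the shared promoter, Hist1h2bg, had 9 UMIs in parous and 59 in virgin cells. Hist1h2ap had 12.1 CPM in parous and 41.7 CPM in virgin cells, but inside the gate 253.4 and 296.2 CPM, where the interval of the log2 ratio (-0.51 to 0.05) included 0. Hist1h2ab had 4.09 CPM in parous and 24.0 CPM in virgin cells, and 482 of its 483 virgin UMIs came from gate cells. Outside the gate it had 7 UMIs in parous and 1 in virgin cells. Hist1h2ak had 2.45 and 14.9 CPM, Hist2h2ac 9.81 and 26.6 CPM, and Hist1h2ac 2.01 and 7.05 CPM in parous and virgin cells. Hist1h2af had 7 UMIs in parous and 139 in virgin cells, Hist1h2an 7 and 83, Hist1h2ai 18 and 118, Hist2h2aa1 20 and 100, and Hist2h2ab 10 and 24. Hist3h2a, on chromosome 11, was the only gene called higher, with 20 parous and 17 virgin UMIs, none of them in gate cells. Its log2 ratio of 0.81 had an interval of -0.19 to 1.84 and turned to -0.21 when cells were thinned to 1400 UMIs.

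Of the H2B genes, Hist2h2bb had 7.50 CPM in parous and 29.7 CPM in virgin cells. Hist1h2bj had 3.94 and 18.5 CPM, Hist1h2bm 2.45 and 11.5 CPM, Hist1h2bb 2.38 and 10.1 CPM, and Hist1h2be 3.72 and 8.39 CPM. Fewer molecules were seen of Hist1h2bh (17 parous and 143 virgin UMIs), Hist1h2bn (18 and 126), Hist1h2bf (11 and 41) and Hist2h2be (17 and 41). Hist1h2bc had 3.49 CPM in parous and 5.46 CPM in virgin cells. Hist3h2ba, the neighbour of Hist3h2a on chromosome 11, did not follow the others. It had 13.3 CPM in parous and 13.0 CPM in virgin cells (log2 ratio 0.03, interval -0.25 to 0.31), with 8.94% and 26.0% of its UMIs from gate cells.

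Hist1h3g, an H3 gene, had the most negative ratio of the 44 named genes, from few parous molecules. It had 4 UMIs in parous and 109 in virgin cells (log2 ratio -4.02, interval -6.09 to -2.79), Hist1h3d 2 and 38, and Hist1h3b 7 and 36. Hist1h3c had 32 parous and 314 virgin UMIs, and gate cells held 100% and 99.4% of them. Hist1h3e had 17.3 CPM in parous and 41.2 CPM in virgin cells. Inside the gate it had 133.7 and 214.1 CPM, and its log2 ratio there of -0.67 was 0.00077 without Trbv31 cells. Hist1h3f had 4.46 CPM in parous and 14.2 CPM in virgin cells, Hist1h3i 2.90 and 12.3 CPM, and Hist1h3a 2.15 and 5.46 CPM.

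H4 was the class with the smallest difference over all cells. Hist1h4d had 34.3 CPM in parous and 78.6 CPM in virgin cells (log2 ratio -1.20), and inside the gate 285.3 and 423.2 CPM. Hist1h4i had 7.28 CPM in parous and 9.18 CPM in virgin cells (log2 ratio -0.33, interval -0.70 to 0.03), and inside the gate 23.9 and 24.0 CPM. Hist4h4, the gene on chromosome 6, had 5.50 CPM in parous and 8.83 CPM in virgin cells. Hist2h4 had 5.20 and 19.0 CPM, Hist1h4h 2.90 and 7.64 CPM, and Hist1h4c 2.82 and 7.44 CPM. Hist1h4k had 9 parous and 51 virgin UMIs. The 23 histone genes with fewer than 30 UMIs held 32 parous and 195 virgin UMIs in all.

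The order of the 44 genes by CPM was alike in the libraries, with a Spearman rho of 0.887 over all cells, 0.905 inside and 0.956 outside the gate, given as a description over genes that share libraries. Many copies are near identical. At least 50% of the 50-base words of 32 genes occur in another gene as well, so how reads were divided among them is uncertain. These genes held 18.4% of the parous and 22.2% of the virgin histone UMIs. Their summed log2 ratio was -1.95, and that of the other 35 genes was -1.61.

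The annotated end of the transcript moved with where a gene's UMIs were found. The longest protein-coding transcript of each gene was used, and for 22 genes it runs 100 or more bases past the hairpin. The 18 of these with at least 30 UMIs had a median of 23.0% of their parous and 62.8% of their virgin UMIs from gate cells. For the 12 genes whose transcripts end within 100 bases of the hairpin the medians were 60.3% and 90.7%. For the 14 with no hairpin in that transcript they were 58.3% and 81.9%. Genes with the longer ends held 80.7% of the parous and 78.4% of the virgin histone UMIs outside the gate, against 55.3% and 52.6% of those inside. Hist1h1c, Hist1h1e, Hist3h2ba and Hist1h4d belong to them, and so does Hist1h2ae, with 77.1% and 96.2% of its UMIs from gate cells. Annotated ends were not measured in these cells.

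**Figure D5:**
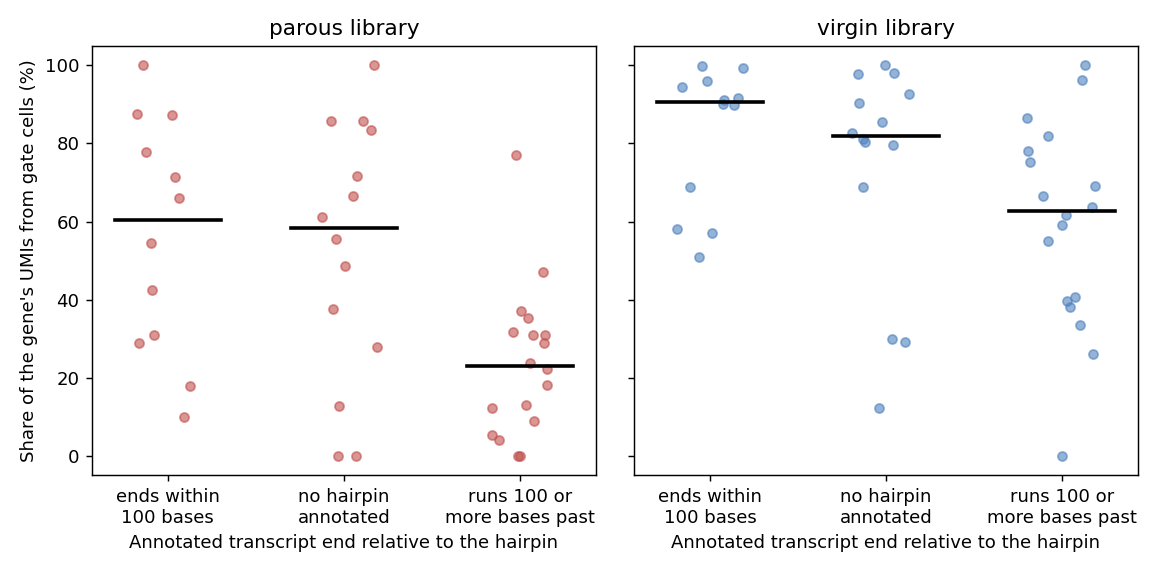
Share of each histone gene's UMIs that came from gate cells (44 genes, points; bars are medians) by annotated transcript end, in the parous (left panel) and virgin library (right panel). The medians of genes that run 100 or more bases past the hairpin are 23.0% in parous and 62.8% in virgin cells, below those of the other groups.

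The 9 gate genes summed to 3354 CPM in parous and 3206 CPM in virgin gate cells, and none was 1.5-fold apart. These genes were used to choose the cells, so their likeness is no separate check of the gate. Inside the gate, 20.4% of all genes compared were lower and 10.5% higher. Of 30 S-phase genes 1 was lower (Rrm1, a subunit of ribonucleotide reductase, 161.6 against 246.2 CPM) and 1 higher (Ccne2, a cyclin of S-phase entry, 39.9 against 17.4 CPM). Of 30 mitosis genes 4 were lower, among them the mitotic kinases Plk1 (23.9 CPM in parous and 86.3 CPM in virgin gate cells) and Nek2 (14.0 and 40.3 CPM), with Hmmr (53.9 and 86.3 CPM) and Ttk (12.0 and 20.1 CPM).

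Of 22 genes compared that make and process histone mRNA, 6 were lower and 2 higher inside the gate, near the 20.4% and 10.5% of all genes. Slbp, the hairpin-binding protein, had 399.1 CPM in parous and 325.2 CPM in virgin gate cells (log2 ratio 0.30). Npat, the coactivator of histone genes, had 35.9 and 29.0 CPM, and Ccna2, an S-phase cyclin and 1 of the 9 gate genes, 179.6 and 233.5 CPM, all within 1.5-fold. Lsm10 and Lsm11 are proteins of the U7 particle that directs cleavage after the hairpin. Lsm10 had 5.99 CPM in parous and 20.9 CPM in virgin gate cells, and Lsm11 5.99 and 14.3 CPM. Each had only 3 UMIs in parous gate cells, against 54 and 37 in virgin gate cells. Cpsf3, the nuclease that makes the cut, had 23.9 CPM in parous and 57.3 CPM in virgin gate cells. Cstf2 had 15.96 and 30.6 CPM, and Fip1l1 57.9 and 98.3 CPM. Of 24 histone chaperones 2 were lower and 2 higher, against the same shares of all genes. The lower ones were Daxx (18.0 CPM in parous and 39.1 CPM in virgin gate cells) and Ncl (395.1 and 601.3 CPM). The higher ones were Hjurp, the chaperone of the centromeric H3 (129.7 and 67.8 CPM), and Cdan1. Cdan1 had 7 parous and 20 virgin UMIs, but the higher CPM in parous gate cells.

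Histone genes that are also expressed outside S phase went the other way in sum. The 12 replication-independent genes found summed to 9669 CPM in parous and 7281 CPM in virgin gate cells. H2afv was higher (1075 against 546.7 CPM), and H1f0, a linker histone of resting cells, was lower (15.96 against 29.4 CPM). H1fx was listed with 0 UMIs in parous and 22 in virgin gate cells, where all genes together had 501184 and 2582898 UMIs. H2afz had 3059 CPM in parous and 2162 CPM in virgin gate cells and H3f3b 2740 and 1974 CPM, both within 1.5-fold.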

How the data were processed

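Single-cell libraries of sorted mammary CD8 T cells, 1 parous and 1 virgin, were analysed from the raw counts of UMIs that the authors deposited. Per the file headers, Cell Ranger 7.0.0 wrote the matrices. R 4.4.2, Seurat and the mm10 build appear, with no step named, in the submitters' processing notes. How barcodes were called as cells is not given in the sources used here. The histone genes and all gene lists were chosen with earlier results of these data known.

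Cells were kept with at least 500 genes, 1000 UMIs and under 10% mitochondrial UMIs. The libraries shared 18 barcodes, none of them a gate cell in both libraries. No doublet caller was run, and cells over 3 times their library's median UMIs were left out as an alternative. CPM is a gene's UMIs summed over cells, per 1000000 of their UMIs. Log2 ratios of single genes had 0.5 added to each count. Intervals of CPM are exact Poisson, those of ratios exact binomial given the sum of both counts, and those of shares Clopper-Pearson. With 1 library a group no p-value was computed, and single genes needed 20 UMIs over both libraries. A histone gene was named from 30 UMIs. Of other lists up to 6 genes at least 1.5-fold apart with 30 UMIs were named, largest first, plus Slbp, Npat and Ccna2, and others named beside them were chosen after their values were seen. A Trbv segment was assigned from at least 2 UMIs and most of a cell's Trbv UMIs. Positions and transcripts were from GENCODE release 21 on GRCm38 by Ensembl ID (67 of 67 matched), promoters from RefSeq by symbol (61 matched). Ratios and intervals were tested on simulated data. Python 3.11.15, numpy 2.4.6, scipy 1.17.1, pandas 2.3.3 and matplotlib 3.10.9 were used. Alternatives covered cell filter, cells kept, gate, depth, scaling, weighting, added count and UMI minimum.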

Additional observations from a re-analysis of the deposited data

Results flagged for a closer look

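Histone RNA appeared in barcodes that the cell filter left out and that enter the comparisons only where no cell filter was applied. The 1908 parous barcodes left out held 1383 histone UMIs, which is 1136 CPM (1076 to 1197), against 322 CPM in the kept parous cells. The 15 virgin barcodes left out held 6 histone UMIs, or 484.5 CPM (177.8 to 1055), against 1029 CPM in the kept virgin cells. In the parous barcodes left out the UMIs were spread over 691 barcodes, at most 13 in one, and 47.6% were from linker genes. Their median depth was 600 UMIs, and 915 of them had a Cd3e UMI.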

How the results depend on the processing

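Among log2 ratios of summed levels, none that was past 1.5-fold changed direction under the alternatives run. Shares and counts of genes were not checked for direction. The ratios outside the gate lay within 1.5-fold and were not covered either, and there the core ratio turned to 0.036 with no cell filter. Of the values of summed levels, shares and counts, 104 moved by no more than counting error or, for counts of genes, 1.5 times, and 60 moved further. For single genes past 1.5-fold, 992 of 1005 values kept their direction. Ratios and counts over all cells do not use the gate. They could not change under another gate, yet both tallies include them. Log2 ratios below are parous over virgin, H1 before core. Over all cells they were -1.40 and -1.40 with no cell filter, -1.39 and -1.30 without cells over 3 times the median UMIs, -1.23 and -1.11 without Trbv31 cells, -1.08 and -0.90 without both (chosen after seeing the data), -1.22 and -1.20 thinned to 1400 UMIs, -1.64 and -1.49 with median-of-ratios scaling and -1.09 and -1.11 with cells weighted equally. Without the 5 cells with most histone UMIs H1 was at -1.66. Inside the gate they were -1.53 and -0.94 without cells over 3 times the median, -0.85 and -0.33 without Trbv31 cells, -1.55 and -0.85 thinned, -1.57 and -0.92 weighted equally and -1.09 and -0.49 with a gate at 7 of 9 (chosen after seeing the data). Core genes were at -0.90 without the 5 top cells and -0.60 with a gate at 9 of 9 (also chosen after seeing the data). Outside they were -0.028 and 0.036 with no cell filter, -0.91 and -0.85 thinned and -0.74 and -0.51 with the gate at 9 of 9. Weighted equally H1 was at -0.35, and with median-of-ratios scaling core was at -0.27.

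The parous gate share was 1.14% with no cell filter, 0.691% thinned, 1.36% at 6 of 9, 0.961% at 7 of 9, 0.364% at 9 of 9 and 1.36% without deep and Trbv31 cells. The virgin gate share was 6.01% at 3 of 9, 4.18% at 6 of 9, 3.505% at 7 of 9, 2.15% at 9 of 9, 2.04% thinned, 3.36% without deep cells, 3.77% without Trbv31 cells and 2.37% without both. The linker share inside the gate was 25% in parous and 35.3% in virgin cells when thinned, and 25.5% in parous cells at 9 of 9. In virgin cells it was 36.6% without Trbv31 cells, 37.3% without deep cells, 38.9% without both and 37.1% without the 5 top cells. Thinned, 25 genes were lower over all cells (of 29 compared) and 8 inside the gate (of 10). Inside the gate 19 were lower without Trbv31 cells and 17 with 10 UMIs in each library. For all of these settings the share of all genes was not computed. Thinned, Hist1h2bf was at 0.15, Hist2h2ab at 0.27 and Hist3h2a at -0.21 over all cells, and Hist1h2af at 0.21, Hist1h2ai at 0.50, Hist1h2bn at 0.50 and Hist2h2aa1 at 1.35 inside the gate. At 9 of 9, Hist1h2ac was at 0.095, Hist2h2ab at 0.0046 and Hist2h2be at 0.66 inside. With 5 added to each count Hist2h2ab was at 1.10 and Hist2h2be at 1.37 inside, each with 0 parous UMIs there. Without Trbv31 cells Hist1h3e was at 0.00077 inside. The cause was not tested for any of these. No paired analysis was possible because each group has 1 library. Depth limits single genes inside the parous gate, where all histone genes together had 1561 UMIs.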
